A study of Mus musculus with 10 samples.

Results

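The 9 genes described here encode core parts of the JAK-STAT pathway: the receptor chains Lifr and Il6st, the kinases Jak1, Jak2 and Tyk2, the transcription factors Stat3, Stat5a and Stat5b, and the inhibitor Socs3. They were examined in N6-methyladenosine (m6A) maps of differentiating 3T3-L1 cells, a mouse preadipocyte line, made by MeRIP-seq, in which fragmented RNA is precipitated with an anti-m6A antibody and sequenced beside untreated input RNA. A peak, the span in which precipitated RNA was enriched over input, was given to a gene when both of its ends were in exons of 1 transcript of that gene on the gene's strand. By this rule 70 of the 17036 peaks in the 5 deposited lists were in the 9 genes.

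The 5 lists stand for 5 conditions with 1 IP and 1 input library each, 10 libraries in all. DMSO Pre holds growth-arrested preadipocytes, DMSO MCE holds cells at mitotic clonal expansion (the early rounds of division after induction), and DMSO Diff holds cells that the labels call mature adipocytes. Rhein MCE and rhein Diff are labelled as the same stages after 20 µM rhein, an anthraquinone from rhubarb. Rhein was given from day 0 to day 3 in place of the DMSO vehicle. All cells came from 1 line, and induced cells received MDI medium (IBMX, dexamethasone and insulin). The labels name no genetic change, and their source field numbers the line differently for each library. With 1 list per condition no test between conditions was possible, so no p-value or SD is given and every difference is one between single lists.

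Cytokines of the interleukin 6 family bind receptors that contain gp130, the product of Il6st, and leukaemia inhibitory factor uses gp130 together with the receptor encoded by Lifr. The bound receptors activate Janus kinases, which phosphorylate STAT proteins, and these enter the nucleus and switch on genes that include Socs3, whose product blocks the receptor and kinases in turn. STAT proteins take part in the differentiation of cultured preadipocytes. m6A is written mostly within the motif GGAC and related sequences and is often found around the stop codon and in the 3′ UTR.

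Of the 9 genes, 6 had a peak in at least 1 list, against 16.6% of the 21924 protein-coding genes of the annotation, expressed or not. Lifr, Il6st, Jak1, Jak2, Stat3 and Socs3 carried peaks, while Tyk2, Stat5a and Stat5b had none in any list. A gene without a peak may carry less m6A or may yield less RNA. These cannot be told apart here, since RNA levels were not analysed.

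The sequences that recurred between lists show what lies under these peaks. Each was read from the GRCm38.p6 genome (mm10 coordinates) on the transcript strand, 5′ to 3′. Capitals mark GGAC, or, where a stretch has no GGAC, every match of the wider DRACH consensus (A, G or T, then A or G, then AC, then A, C or T). The Jak2 stretch, chr19:29311751-29311848 on the plus strand, is the coding part common to the DMSO MCE and DMSO Diff peaks and ends with the stop codon. The Socs3 stretch, chr11:117967553-117967678 on the minus strand, is the coding part common to DMSO MCE, DMSO Diff and rhein. The Il6st stretch, chr13:112503738-112503887 on the plus strand, is a whole DMSO Pre peak in exon 17 of 17, which the DMSO Diff and rhein peaks also cover.
Jak2 end of the CDS: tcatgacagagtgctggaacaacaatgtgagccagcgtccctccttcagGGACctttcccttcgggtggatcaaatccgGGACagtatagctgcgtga
Socs3 end of the CDS: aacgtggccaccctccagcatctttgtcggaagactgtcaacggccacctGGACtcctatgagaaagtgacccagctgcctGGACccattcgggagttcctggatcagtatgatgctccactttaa
Il6st CDS: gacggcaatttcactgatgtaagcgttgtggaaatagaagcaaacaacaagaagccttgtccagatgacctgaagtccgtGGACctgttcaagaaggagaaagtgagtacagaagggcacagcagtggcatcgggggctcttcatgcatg

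From the 3′ UTR, short windows of 25 bases around the motif are shown. The strongest Socs3 peak held 3 copies of GGAC in the part common to DMSO MCE, DMSO Diff and rhein, at chr11:117967274-117967298, chr11:117967254-117967278 and chr11:117967202-117967226. The Il6st window is the only GGAC in a stretch of 200 bases under a peak in every list, at chr13:112505249-112505273. The Stat3 window, at chr11:100888598-100888622, comes from a stretch of 75 bases that lies under a peak in every list and has no GGAC. Both Lifr windows come from its only peak, at chr15:7191244-7191268 and chr15:7191269-7191293.
Socs3 3′ UTR a: ctggcctggtgGGACaatacctttg
Socs3 3′ UTR b: ctttgacaagcGGACtctcccctcc
Socs3 3′ UTR c: aagggaggtggGGACacctccaagt
Il6st 3′ UTR: aaccacaccagGGACagatgattct
Stat3 3′ UTR: tctgAAACTccTAACTttgtggttc
Lifr 3′ UTR a: catttctggagGGACcctgcaaatg
Lifr 3′ UTR b: ttgatagccagGGACcttcactctg

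The DMSO lists had 9 (Pre), 22 (MCE) and 11 (Diff) peaks in the 9 genes, and the rhein lists 14 each. In the same order the lists themselves held 2824, 5128, 2944, 3069 and 3071 peaks. The 9 genes thus made up 0.319%, 0.429%, 0.374%, 0.456% and 0.456% of them, so the high count in DMSO MCE went with a list of greater length. Read numbers were not given in the sources used here, and the part of depth in these counts was not tested. Each peak has 1 score, the peak caller's measure of IP over input, which has the range of a −log2-transformed adjusted p-value and is used here as a rank within its list. When every list was held to its 2824 highest-scoring peaks, the 9 genes kept 14 of the 22 peaks in DMSO MCE.

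**Figure D1:**
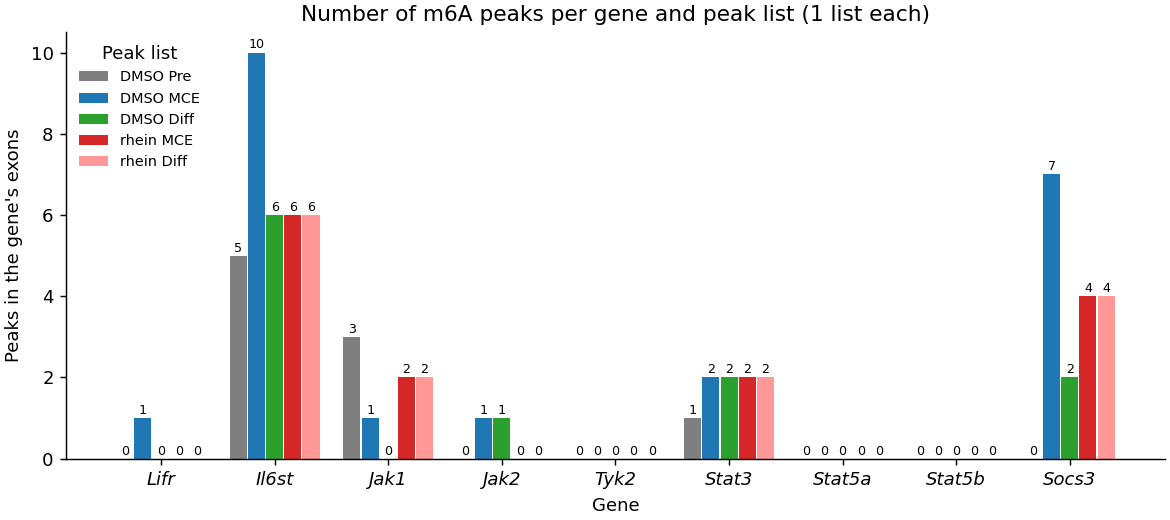
Number of peaks in the exons of each of the 9 genes, as bars, 1 bar for each of the 5 peak lists. Il6st reaches 10 and Socs3 7 in DMSO MCE, while Tyk2, Stat5a and Stat5b stay at 0 in every list.

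The rhein lists hold almost the same peaks: 3067 spans are identical between them, among them all 14 in the 9 genes. The scores of 12 of these 14 differ by less than 0.02. The other 2 are in Il6st, where the peak across the stop codon scored 17.5 at MCE and 11.2 at Diff and the next peak downstream 11.8 and 14.2. DMSO MCE and DMSO Diff had 218 identical spans. For this reason both rhein lists entered as a single sample, shown by the values of rhein MCE, which leaves 4 distinct lists. Differences between the rhein stages were not assessed. Which stage the shared rhein peaks stand for cannot be told from the lists, so comparisons of rhein with DMSO may not be matched by stage.

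By stage, 3 of the 9 genes had a peak in DMSO Pre (Il6st, Jak1 and Stat3), against 6.89% of all protein-coding genes. DMSO MCE had 6 of 9, with Lifr, Jak2 and Socs3 in addition, against 12.5%. DMSO Diff had 4 of 9 (Il6st, Jak2, Stat3 and Socs3) against 6.69%. With rhein 4 of 9 genes had a peak, Il6st, Jak1, Stat3 and Socs3, against 7.44% (MCE) and 7.45% (Diff) of protein-coding genes. Il6st and Stat3 were the 2 genes with a peak in all 4 distinct lists, which held for 2.56% of protein-coding genes.

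**Figure D2:**
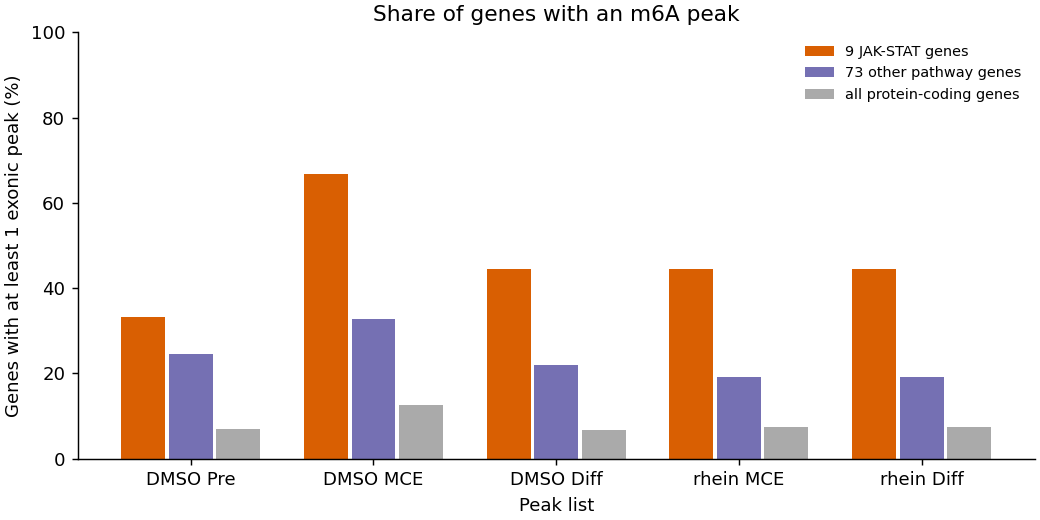
Percentage of genes with at least 1 exonic peak in each of the 5 lists, for the 9 JAK-STAT genes, 73 other genes of the pathway and all protein-coding genes. The 9 genes stand between 33.3% and 66.7%, and the 73 other genes between 19.2% and 32.9%, both above all protein-coding genes in every list.

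From DMSO Pre to DMSO MCE, 3 of the 9 genes gained their first peak (Lifr, Jak2 and Socs3), as did 7.54% of protein-coding genes, and none lost its last, as 1.93% did. From DMSO MCE to DMSO Diff, Lifr and Jak1 lost their peaks, a change seen in 7.47% of protein-coding genes, and no member gained one, against 1.66%. Between DMSO MCE and rhein MCE, Lifr and Jak2 had a peak in DMSO alone, like 6.81% of protein-coding genes, and no member in rhein alone, like 1.76%. Between DMSO Diff and rhein Diff, Jak2 had a peak in DMSO alone, like 2.71%, and Jak1 in rhein alone, like 3.48%. The 14 rhein Diff peaks in the 9 genes have the same spans as in rhein MCE. The last comparison thus sets the same rhein peaks against DMSO Diff, and Jak1 had a peak in DMSO MCE too. The shares are over all protein-coding genes, while only a gene with a peak can lose one. Among protein-coding genes with a DMSO MCE peak, 1638 of 2739 had none in DMSO Diff, against 2 of 6 members. In rhein MCE 1493 of the 2739 had none, again against 2 of 6 members. Of 1466 with a DMSO Diff peak, 595 had none in rhein Diff, against 1 of 4 members. Of 1511 with a DMSO Pre peak, 424 had none in DMSO MCE, against 0 of 3 members. These comparisons share lists, so they are not independent of each other.

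**Figure D3:**
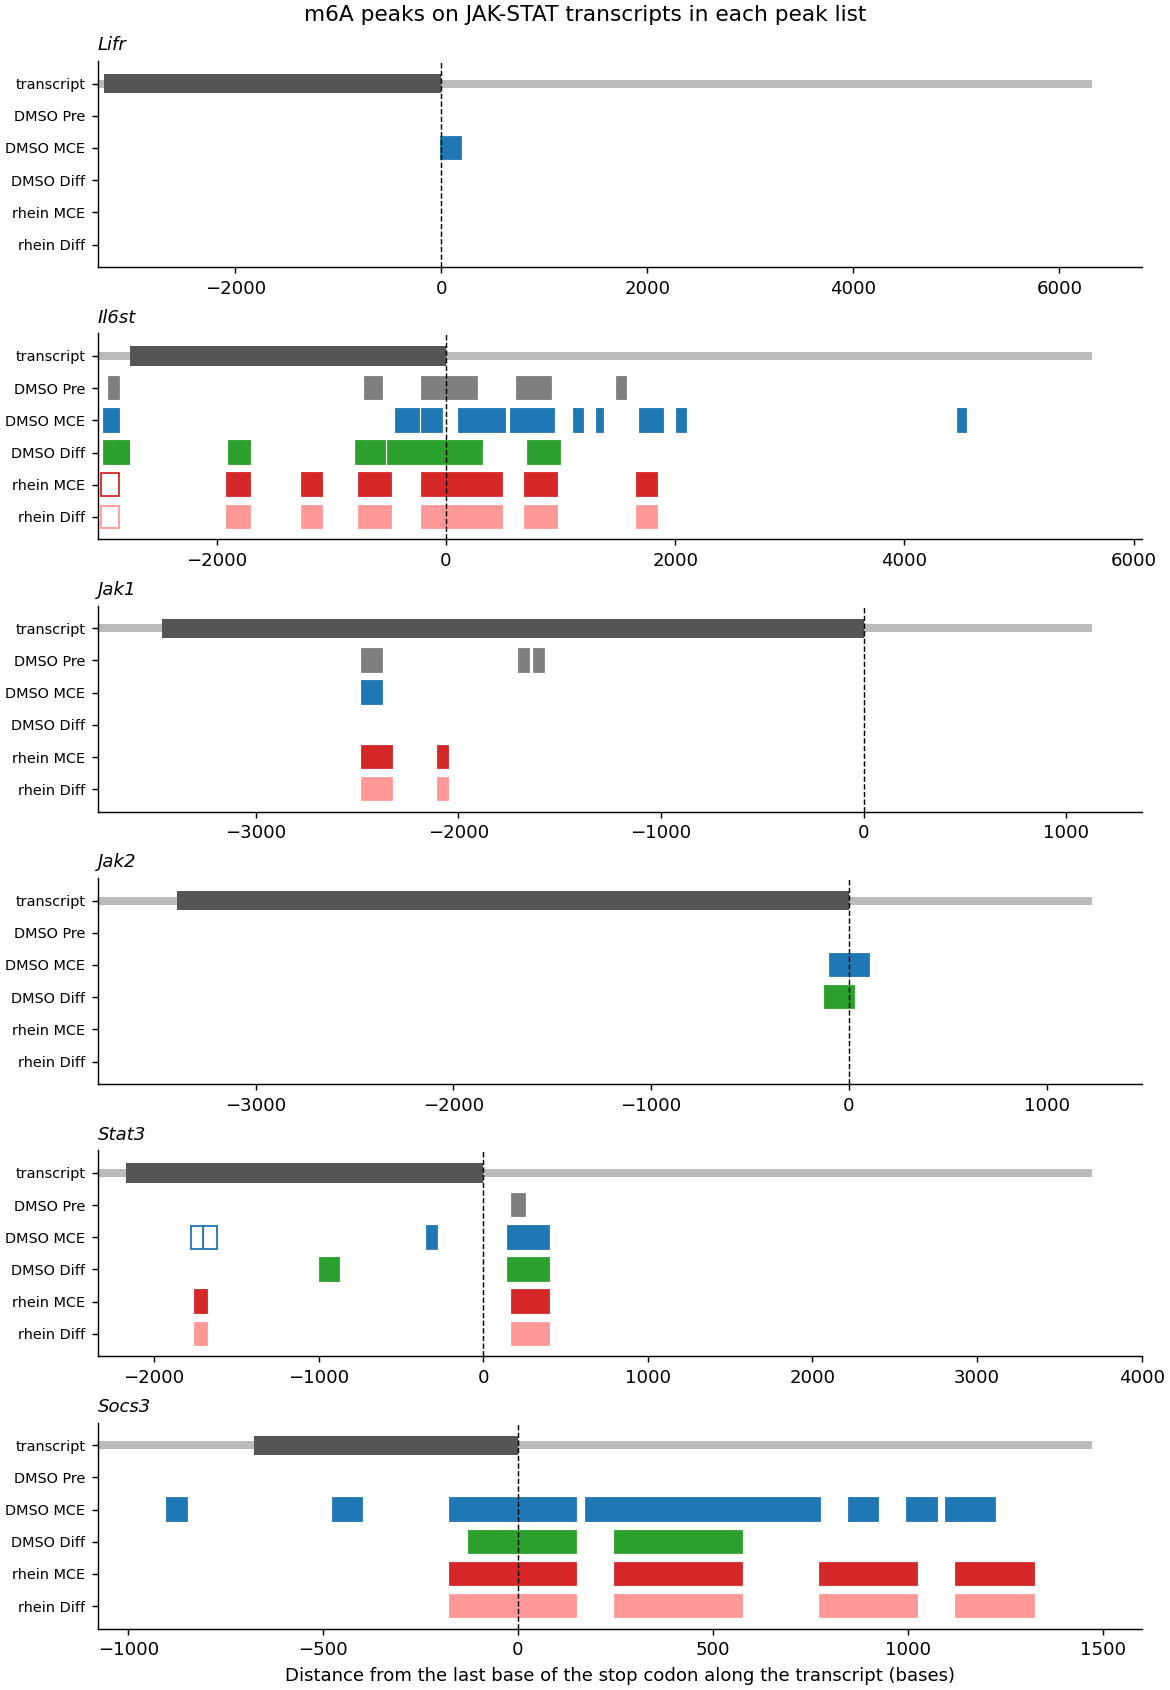
Peaks (coloured blocks) along the longest coding transcript of each gene with a peak, by list. The x axis gives the distance in bases from the last base of the stop codon (dashed line), thick grey marks the CDS, thin grey the UTRs, and open blocks are peaks whose ends are in exons of different transcripts, which were not counted. Jak2 peaks lie across the stop codon in DMSO MCE and DMSO Diff alone, while a Stat3 block in the 3′ UTR recurs in every list.

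Lifr (chr15:7090614-7197489, plus strand) encodes the receptor that binds leukaemia inhibitory factor. It had 1 peak, in DMSO MCE, chr15:7191163-7191362. The peak began 6 bases before the last base of the stop codon and ran 193 bases into a 3′ UTR of 6320 bases. Its score of 6.34 was rank 3724 of 5128, in the lower part of the list. The peak was lost when the list was held to 2824 peaks. The deposited list names it under Egflam, a gene on the opposite strand.

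Il6st (chr13:112464070-112510086, plus strand), which encodes the shared signalling chain gp130, carried the most peaks of the 9 genes. DMSO cells had 5 (Pre), 10 (MCE) and 6 (Diff), and rhein cells 6. Among protein-coding genes with a peak, as many or more were found for 3.77% (Pre), 0.256% (MCE, 7 of 2739) and 2.93% (Diff) under DMSO and for 2.51% under rhein. Il6st transcripts are long, and the reference transcript has 8678 bases. Peaks covered 12.5% of it at the DMSO Pre stage, 20.2% at both later DMSO stages and 20.8% with rhein. The rhein values leave out a 5′ UTR peak that was not counted, with 156 bases in exons of this transcript. With any exon overlap allowed, rhein MCE had 7 Il6st peaks. The larger number of DMSO MCE peaks thus covered about as much of the transcript as the fewer, longer peaks of DMSO Diff and rhein.

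Joined wherever they shared an exonic base, the Il6st peaks of the 4 distinct lists formed 12 sites, of which 2 had a peak in every list. The first such site lay around the stop codon and the coding sequence before it. In DMSO cells its best peak was rank 355 of 2824 at Pre (12.6% from the top of the list, as rank over the number of peaks), 255 of 5128 at MCE (4.97%) and 174 of 2944 at Diff (5.91%), and in rhein MCE rank 140 of 3069 (4.56%). The peaks that gave these ranks did not lie in one place. In DMSO Pre, DMSO Diff and rhein they were in the coding sequence, centred 633, 658 and 620 bases before the end of the stop codon, over the Il6st stretch printed above. In DMSO MCE no peak covered that stretch, and the best peak of the site was in the 3′ UTR, centred 317 bases after the stop codon.

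The second site under a peak in every list was further into the 3′ UTR, 718 to 917 bases after the stop codon, around the Il6st 3′ UTR window. Its DMSO ranks were 1635 of 2824 (Pre, 57.9% from the top), 224 of 5128 (MCE, 4.37%) and 1346 of 2944 (Diff, 45.7%), and its rhein MCE rank was 701 of 3069 (22.8%). DMSO MCE was the list in which this site stood highest. Beyond it, DMSO MCE alone had 4 further sites in the 3′ UTR, the last of them centred 4505 bases after the stop codon. Conversely, a site in the coding sequence around exon 8 of 17 was listed in DMSO Diff (rank 644) and rhein MCE (rank 806) and in neither of the other lists.

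At the 5′ end of Il6st, a peak in the 5′ UTR was listed at all DMSO stages, at rank 2218 of 2824 (Pre), 823 of 5128 (MCE) and 2081 of 2944 (Diff). Its place was 78.5%, 16.0% and 70.7% from the top. Rhein MCE had a peak with the same end as in Pre and MCE, at rank 631 of 3069 (20.6%). It was not counted, because its start and end were in exons of different Il6st transcripts. With it, the 5′ UTR of Il6st had a peak in every list. DMSO Diff had a further peak in the 5′ UTR of another Il6st transcript, at rank 1511.

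The ligand receptor genes thus differed in how steadily they were marked: Il6st was in every list, and Lifr in 1 list at a low rank. Of the 33 Il6st rows over the 5 lists, 21 are named under Il31ra, the neighbouring receptor gene on the opposite strand. A search of the deposited lists by symbol would find 14 Il6st rows, the other 12 and the 2 uncounted rhein rows of the 5′ UTR.

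Jak1 (chr4:101152367-101265282, minus strand) encodes a Janus kinase that works with gp130. All of its peaks were in the coding sequence. Under DMSO there were 3 at Pre, 1 at MCE and none at Diff, and under rhein 2. The peak in exon 8 of 25 had the same span in DMSO Pre and DMSO MCE, at rank 559 of 2824 (19.8% from the top) and rank 1117 of 5128 (21.8%). The rhein peak was longer, with 149 against 99 bases, and stood lower, at rank 1967 of 3069 (64.1%). DMSO Pre had 2 more peaks in exon 13, at ranks 2233 and 2816, and rhein 1 more in exon 10, at rank 1703. None of these smaller peaks was shared with another distinct list. The recurrent peak was thus far from the stop codon, where the Jak2 peaks lay.

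Jak2 (chr19:29251828-29313080, plus strand) encodes the Janus kinase of growth hormone and related receptors, and m6A on its mRNA has been studied in adipocyte differentiation. Under DMSO it had no peak at Pre, 1 at MCE and 1 at Diff, and it had none with rhein. Both peaks lay across the stop codon. The DMSO MCE peak, chr19:29311751-29311950, covered 200 bases of exon 25 of 25 and was centred 2 bases after the end of the stop codon. The DMSO Diff peak, chr19:29311027-29311875, spanned the last intron and covered 150 exonic bases, centred 48 bases before that point. The peaks had 125 bases in common, from 97 bases before the end of the stop codon to 27 after it.

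Both Jak2 peaks were weak for their lists. The DMSO MCE peak had a score of 5.80 and was rank 4259 of 5128, 83.1% from the top, and the DMSO Diff peak had a score of 6.88 and was rank 2051 of 2944, 69.7% from the top. Held to its 2824 highest-scoring peaks, the DMSO MCE list lost its Jak2 peak. Neither Jak2 peak passed a stricter threshold, a score above 9.97. That is the score of an adjusted p-value of 0.001 if scores are minus log2 of one, a scale assumed from their range. The lowest score of each list was between 4.19 and 4.32, so an enrichment under that limit in DMSO Pre or rhein would not be listed, and no size can be given for a difference in Jak2. The Jak2 transcript holds 16 copies of GGAC, 15 of them in the CDS, and 2 of these were under each peak, both in the printed stretch. Among all placed peaks (those with both ends in exons of 1 transcript) of the 4 distinct lists with a like length (within 25 bases of 98), 31.3% held a GGAC. That is the length of the printed stretch, while the whole peaks covered 200 and 150 exonic bases. Of the placed peaks within 25 bases of 150, 63.2% held a GGAC. The deposited lists name both peaks under Insl6, a gene on the opposite strand downstream, so a search for Jak2 by symbol finds nothing.

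The pattern of Jak2, a peak in DMSO MCE and DMSO Diff and in no other distinct list, was shared by 188 protein-coding genes, Jak2 included, which is 5.16% of the 3641 with any peak. The genes nearest to Jak2 in the place of their best peak were Adcy6, at 83.2% and 70.3% from the top of DMSO MCE and DMSO Diff, Shoc2 at 81.2% and 71.9%, and Ralgapa2 at 85.7% and 73.4%. Likeness was measured as the summed absolute difference of these places over 2 lists.

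Tyk2 (chr9:21104068-21131243, minus strand), the third kinase, had no peak in any list. Its transcript holds 25 copies of GGAC in 4828 bases, against 16 in 5030 bases of Jak2 and 24 in 4906 bases of Jak1. Tyk2, without a peak, thus held more copies of the motif than Jak2, with peaks.

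Stat3 (chr11:100885098-100939540, minus strand), the transcription factor activated through gp130, had 1 peak at Pre and 2 at each later DMSO stage, and 2 with rhein. The peak in the 3′ UTR was in every list. Its span was identical in DMSO MCE and DMSO Diff, chr11:100888398-100888647, 250 bases that were centred 276 bases after the stop codon. In rhein it covered 225 bases, and in DMSO Pre 75 bases. It ranked 1417 of 2824 at Pre (50.2% from the top), 691 of 5128 at MCE (13.5%) and 891 of 2944 at Diff (30.3%) under DMSO, and 1168 of 3069 (38.1%) in the rhein MCE list. The Stat3 3′ UTR was thus marked at each stage and with rhein, highest in the list of DMSO MCE.

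No peak in the Stat3 3′ UTR held a GGAC, although the 3′ UTR has 11 copies in 3701 bases. The stretch of 75 bases in every list had 2 matches of DRACH, the capitals in the Stat3 window. Each of the second Stat3 peaks was in 1 distinct list. In DMSO MCE it was at rank 4329 on a non-coding Stat3 transcript that overlaps the coding exons, in DMSO Diff at rank 2931 of 2944 across 3 exon blocks, and in rhein MCE at rank 2798 of 3069 in exon 5 of 24. An uncounted DMSO MCE peak at rank 2641, with its ends in exons of different Stat3 transcripts, overlapped the exon 5 region too.

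Stat5a (chr11:100859351-100885169, plus strand) and Stat5b (chr11:100780731-100850724, minus strand), closely related factors that act downstream of growth hormone and lie beside Stat3, had no peak in any list. Their transcripts hold 18 and 25 copies of GGAC, and that of Stat3 holds 18. Stat3 was the 1 gene of these 3 with peaks.

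Socs3 (chr11:117966079-117970047, minus strand), the inhibitor that STAT3 induces, had no peak at the DMSO Pre stage, 7 at MCE and 2 at Diff, and 4 with rhein. Of the protein-coding genes with a peak, 1.20% (33 of 2739) had 7 or more in DMSO MCE. The transcript is short, with 2552 bases, and peaks covered 51.9% of it at MCE and 23.5% at Diff under DMSO and 43.1% with rhein. All of the peaks with DMSO Diff or rhein lay around the stop codon or in the 3′ UTR, while DMSO MCE also had a peak in the 5′ UTR (rank 3081) and one inside the coding sequence (rank 2265).

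The strongest Socs3 peak was in the 3′ UTR. In DMSO MCE it covered 600 bases, chr11:117966779-117967378, at rank 140 of 5128 (2.73% from the top), the highest place of any peak in the 9 genes by percentage. By rank alone the best Il6st peak of the shorter rhein MCE list, also 140, was level with it. In DMSO Diff and rhein it had 1 span of 325 bases, chr11:117966979-117967303, at rank 236 of 2944 (8.02%) and 271 of 3069 (8.83%). The next peak, across the stop codon, ranked 527 at MCE (10.3%) and 641 at Diff (21.8%) under DMSO and 542 (17.7%) under rhein, with the same span in DMSO MCE and rhein, chr11:117967404-117967728. Both of these sites were present in DMSO MCE, DMSO Diff and rhein and absent from DMSO Pre. Further down the 3′ UTR, 2 sites were shared by DMSO MCE and rhein and not listed in DMSO Diff. They stood higher with rhein, at ranks 695 (22.6%) and 1071 (34.9%), than in DMSO MCE, at 2637 (51.4%) and 2770 (54.0%). At the first of them rhein had 1 peak of 250 bases and DMSO MCE 2 peaks of 75 bases. At the second the peaks had 200 and 125 bases. The part of peak length in these ranks was not tested.

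A copy of GGAC in the reference transcript was counted as under a peak when its A was, also where the peak ended inside the motif. Of the 13 copies in the Socs3 transcript, 7 were under DMSO MCE peaks, 5 under DMSO Diff peaks and 5 under rhein peaks. Il6st, with 37 copies, had 10 (Pre), 10 (MCE) and 11 (Diff) under DMSO peaks and 14 under rhein peaks. Jak1 had 3 of 24 under peaks in DMSO Pre and none in the other lists.

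Across the 9 genes, the place of the peaks in their lists ranged widely. The median place from the top was 57.9% (Pre), 47.7% (MCE) and 30.3% (Diff) under DMSO and 29.3% under rhein, where all placed peaks of a list have a median near 50%. In DMSO Diff 7 of 11 peaks and with rhein 10 of 14 ranked within the first 50% of the list. Except in DMSO Pre, the peaks were also longer than the rest. Their median exonic length was 99 (Pre), 150 (MCE) and 250 (Diff) bases under DMSO and 216 under rhein, against 125, 125, 100 and 125 bases for all placed peaks. The part of length in these ranks was not tested. Most of the long peaks were in Il6st and Socs3, so these medians describe mainly those genes. A place is relative to its own list. Scores above 9.97 made up 18.6% of placed peaks in DMSO MCE and 30.5% to 32.2% in the other distinct lists. The same place can thus stand for a lower score in DMSO MCE.

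**Figure D4:**
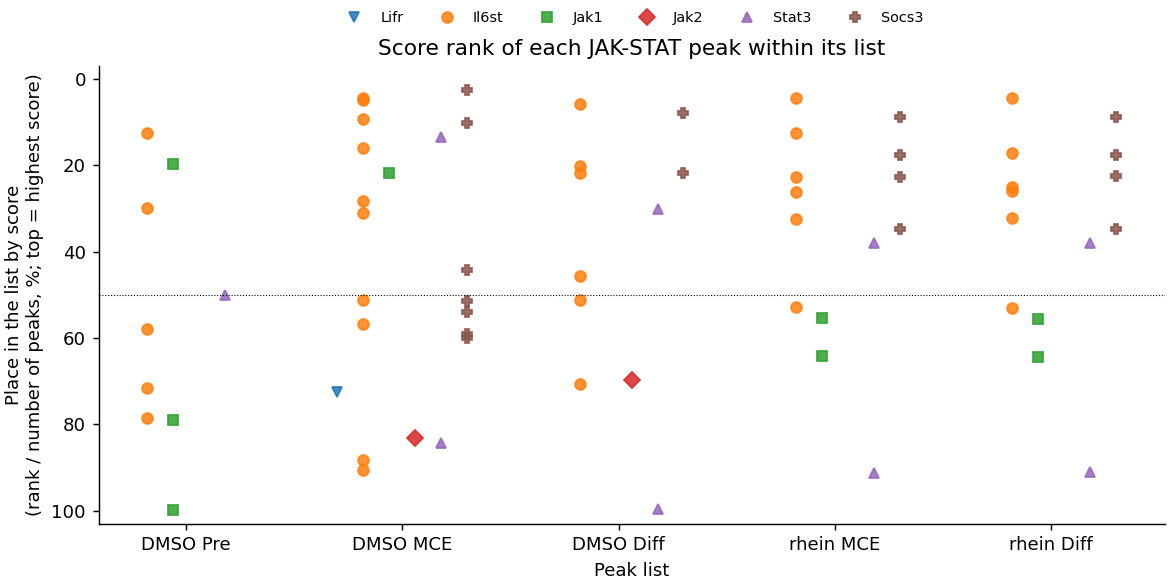
Place of every peak in the 9 genes within its list, as rank by score divided by the number of peaks in the list (percent, highest score at the top), with 1 symbol per gene. Socs3 and Il6st hold the high places, Jak2 lies in the lower part of DMSO MCE and DMSO Diff, and Jak1 stands lower with rhein than at its best place in DMSO Pre.

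By part of the transcript, taken at the peak's midpoint, the 3′ UTR held 4 of 9 (Pre), 14 of 21 (MCE) and 4 of 11 (Diff) DMSO peaks and 7 of 14 rhein peaks. The shares over all placed peaks on coding transcripts were 40.2%, 39.1%, 39.6% and 40.5%. In DMSO MCE most of the 14 were in Il6st and Socs3. Peaks centred within 200 bases of the end of the stop codon numbered 1, 4, 3 and 2, against 21.4%, 24.4%, 23.5% and 22.6% of all placed peaks. Since 1 gene gives several neighbouring peaks, these counts are not independent.

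GGAC was under 5 of 9 (Pre), 13 of 22 (MCE) and 8 of 11 (Diff) DMSO peaks and 7 of 14 rhein peaks. Over all placed peaks of the same lists the shares were 53.2%, 52.9%, 48.2% and 52.2%. The shares were not matched for length, and the peaks of the 9 genes were longer except in DMSO Pre. Per kb under their peaks, GGAC numbered 7.86 (Pre), 5.54 (MCE) and 5.99 (Diff) under DMSO and 5.58 under rhein. Over all placed peaks the values were 7.05, 7.10, 6.24 and 6.57. By gene, over the 4 distinct lists, GGAC was under 21 of 27 Il6st peaks, 7 of 13 Socs3 peaks, 2 of 2 Jak2 peaks and 1 of 1 Lifr peak, and under 1 of 6 Jak1 and 1 of 7 Stat3 peaks. The DRACH consensus was under 8 of 9, 21 of 22, 11 of 11 and 13 of 14 peaks, close to the 88.1%, 86.1%, 86.9% and 87.5% of all placed peaks. Only the transcript strand was searched, and a GGAC followed by A, C or T is also a match of DRACH. A match does not show that the base is methylated.

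Peaks of the 9 genes recurred between lists as follows, with 1 shared exonic base as the minimum. Of the 9 peaks in DMSO Pre, 5 overlapped a DMSO MCE peak, while 44.8% of all DMSO Pre peaks did. Of the 22 in DMSO MCE, 9 were found again in DMSO Diff (26.0% of all) and 12 in rhein MCE (32.0% of all). Of the 14 in rhein MCE, 10 overlapped DMSO MCE (53.3% of all) and 7 overlapped DMSO Diff (37.6% of all). Except in DMSO Pre, the peaks of the 9 genes were longer, and the part of length in this overlap was not tested. Neighbouring peaks of 1 gene are also not independent. Joined over the 4 distinct lists, the peaks made 28 sites, of which 16 were in 1 list, 5 in 2, 4 in 3 and 3 in every list. The 3 sites in every list were both Il6st sites described above and the Stat3 3′ UTR.

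Other genes of the pathway were read from a list of 73 ligands, receptors, kinases, STAT factors, inhibitors, adaptors and target genes. A peak was found for 18 (Pre), 24 (MCE) and 16 (Diff) of them under DMSO, for 14 under rhein and for 32 (43.8%) in any list, against the 16.6% of all protein-coding genes. Among the roles given here, a peak in any list was found for 9 of 19 receptors, 4 of 5 STAT and associated factors, 5 of 15 inhibitors, 4 of 7 adaptors and 7 of 12 target genes, and not for Jak3, the only other kinase.

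Of the wider list, 3 target genes had the highest-scoring peaks among the 8 of these genes with a peak in all 4 distinct lists. Cebpb, a transcription factor of early adipocyte differentiation, had 2 (Pre), 4 (MCE) and 2 (Diff) peaks under DMSO and 5 in rhein MCE, where its best peak was 0.0326% from the top, the first of the list. Junb, an AP-1 subunit, had 1, 2, 3 and 3 peaks, with its best place in DMSO MCE at 0.117%. Cebpd, a partner of Cebpb in early differentiation, had 1, 3, 1 and 3 peaks, with its best place in rhein MCE at 0.196%. These best places were above those of every peak in the 9 genes, but the 3 genes were chosen partly by best place. In DMSO Pre their best peaks stood at 2.51% (Cebpb), 80.4% (Junb) and 70.4% (Cebpd) from the top.

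The labelled cell types could not be checked from these lists, which hold peaks and no expression. Of 6 adipocyte markers (Adipoq, Fabp4, Plin1, Pparg, Cebpa and Lpl), none had a peak in any list. Of 4 preadipocyte and fibroblast markers, Pdgfra had 5 (Pre), 2 (MCE) and 3 (Diff) peaks under DMSO and 1 in each rhein list, Col1a1 had 2 and Col1a2 had 4 in DMSO Pre alone, and Dlk1 had none.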

How the data were processed

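MeRIP-seq was done on 5 conditions with 1 IP and 1 input library each. Per the labels and methods, the authors trimmed reads with Trim Galore (v0.6.5), aligned them to mm10 with HISAT2 (v2.1.0), removed duplicates with Picard (v2.23.5) and poorly mapped reads with SAMtools (v1.9), ran exomePeak2 with its defaults to find peaks, and used ChIPseeker (v1.26) for annotation. Versions of Trim Galore and HISAT2 are those in the submitters' processing notes. Which libraries entered each call is not given in the sources used here. The authors deposited 1 value per peak, which their peak caller made from IP against input and which is treated here as a score. Its header names a log2 fold change, but the values start between 4.19 and 4.32, near minus log2 of 0.05, and reach 735. It was used for ranks within a list and for a stricter threshold of 9.97, whose p-value scale is assumed from this range.

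Peaks were placed on GENCODE M21 transcripts with Python (v3.11.15), and 96.5% to 97.6% of each list could be placed. The genomic part of a peak came from the longest coding transcript that held it. Sequence came from RefSeq's GRCm38.p6. Placing was tested on 1000 simulated peaks, of which 100% returned to their gene and 96.7% had the planted exonic length on the transcript chosen. All 9 genes were described by role, of the wider list the 3 with peaks in the most distinct lists (ties by best place), and for Jak2 the 3 nearest genes of its pattern. The members and lists were chosen with earlier results of these data known. No test between conditions was made. Some genes and sequences are not reported here.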

Additional observations from a re-analysis of the deposited data

Results flagged for a closer look

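Against DMSO, the number of peaks in the 9 genes was lower with rhein at the MCE stage and higher at the differentiation stage: rhein minus DMSO was -8 peaks in MCE (14 against 22) and 3 in Diff (14 against 11). Socs3 showed the same turn, with a difference of -3 peaks in MCE (4 against 7) and 2 in Diff (4 against 2). They stand here because the direction differs between the stages. The difference was not tested, there being 1 list per condition. The lower count at MCE depended on list length and threshold. With lists of equal length, DMSO MCE and rhein MCE each had 14 member peaks, and above the stricter score of 9.97 each had 7. For Socs3 at MCE, equal length gave 5 peaks with DMSO and 4 with rhein, and the stricter score gave 2 with DMSO and 3 with rhein, the opposite direction. At Diff, equal length gave 10 member peaks with DMSO and 14 with rhein, and the stricter score 6 and 7. For Socs3 at Diff, equal length gave 2 peaks with DMSO and 4 with rhein, and the stricter score 2 and 3. The rhein lists hold the same 14 peaks, so the turn comes from the DMSO lists alone.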

How the results depend on the processing

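Counts of member peaks, member genes, peaks per gene, peaks shared within DMSO or between treatments at 1 stage, 3′ UTR peaks and peaks with GGAC were made again with other rules. Of the values so obtained, 67 of 90 for the summary counts and 125 of 150 for single genes stayed within 1.5 times. Other counts were not repeated. Taking the gene from the symbol column left DMSO Pre with 5 member peaks and DMSO MCE with 12, as Il6st, Jak2 and Lifr peaks are named under neighbours. Holding lists to equal length left 14 in DMSO MCE. Taking the authors' part put 8 member peaks of DMSO Diff and 11 each of rhein MCE and rhein Diff in the 3′ UTR. Above the score of 9.97 (0.001 on the assumed scale), DMSO kept 3 (Pre), 7 (MCE) and 6 (Diff) member peaks and each rhein list 7. This score left 3 member genes in DMSO MCE and 2 per rhein list. Under it, the peaks shared were 1 of DMSO Pre with DMSO MCE, 2 in reverse, 5 of DMSO MCE with DMSO Diff, 4 in reverse, 2 of DMSO Pre with DMSO Diff, 2 in reverse, 4 of rhein MCE with DMSO MCE, 6 in reverse, and 5 of DMSO Diff with rhein Diff. Fewer peaks entered under this score, and the share in common moved both ways. It went from 5 of 9 to 1 of 3 for DMSO Pre in DMSO MCE. For DMSO MCE in rhein MCE it went from 12 of 22 to 6 of 7. Counting either strand, any exon overlap, a larger overlap for sharing or a motif window of 100 bases moved no summary count past 1.5 times. No paired analysis was possible because each condition has 1 list. Depth is unknown, so an unlisted peak may be one below the caller's threshold.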
